A study of Mus musculus with 6 samples.

Results

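A set of genes that mark heat-producing fat cells, 10 of 30142 named genes on the array, was followed in inguinal subcutaneous white fat of mice: Ucp1, Cidea, Ppargc1a, Prdm16, Dio2, Elovl3, Cpt1b, Cox8b, Cox7a1 and Tmem26. They were chosen by name, and each was read by a single probe set that carries only that gene's symbol. The KO group was 3 male C57BL/6 mice with floxed TFG alleles (TFG f/f) and Adipoq-ERT2Cre, a tamoxifen-inducible Cre recombinase driven by the adiponectin promoter and therefore aimed at adipocytes, while other cells of the fat pad keep the gene. The WT group was 3 male C57BL/6 mice with TFG f/f and no Cre, so both groups carried the floxed alleles. Both groups received tamoxifen for 5 days, and RNA was taken 2 weeks later, at an age given as 2 months. RNA of whole fat was hybridised to whole-transcript microarrays, 1 array per mouse, and values are log2 signals per probe set.

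Brown and beige adipocytes burn fuel to make heat. Noradrenaline from sympathetic nerves acts on beta-adrenergic receptors, cyclic AMP rises, lipid is broken down, and the fatty acids both fuel the mitochondria and open UCP1, a carrier of the inner mitochondrial membrane that lets protons return without making ATP. Inguinal white fat is the depot of the mouse in which beige cells arise most readily, and PRDM16 and PGC-1alpha (Ppargc1a) are the transcriptional regulators best known for driving that programme. Several of its genes, among them Cox8b, Cox7a1, Cpt1b and Ppargc1a, are also used by striated muscle.

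The targeted gene itself did not read lower: Tfg had a log2 signal of 7.99, 8.21 and 8.03 on arrays of the KO group, against 7.97, 7.94 and 7.91 on those of the WT group (change 0.14, limma adjusted p = 0.345). The exons that its probe set covers are unknown here, which makes this a partial check, and the arrays are therefore named KO-labelled and WT-labelled, with every direction resting on those labels. Array medians were 6.47 to 6.76 on KO-labelled and 6.96 to 7.02 on WT-labelled arrays, and the change had a median of -0.37 over all probe sets, which centring each array or quantile normalization moved to -0.04. KO 2 stood apart from its group, with correlations of 0.960 and 0.965 to KO 1 and KO 3, which correlated at 0.986. With WT 1, WT 2 and WT 3, KO 1 correlated at 0.962, 0.969 and 0.954 and KO 3 at 0.955, 0.963 and 0.947. For KO 2 these values were 0.887, 0.900 and 0.874. KO 1 thus lay closer to WT 1 and WT 2 than to KO 2. Of 17 measured adipocyte markers 13 rose and none fell, with a median change of 2.99, against 9.03% of named genes called higher and 12.9% called lower. The mean of 14 housekeeping genes was 0.998 higher on KO-labelled arrays. A change in the number of cells of a type and a change in RNA per cell cannot be told apart in whole tissue.

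Of the 10 genes, 3 rose on the KO-labelled arrays, Cox8b, Cox7a1 and Cpt1b, and none fell. limma called 5.32% of all probe sets and 9.03% of named genes higher at an adjusted p under 0.05, and 15.6% and 12.9% lower. Ucp1 and Cidea were higher on every KO-labelled array without passing. Prdm16, Dio2, Elovl3 and Tmem26 had means below those of the WT-labelled arrays, also without passing, and Prdm16 and Dio2 turned to changes above 0 under centring or quantile normalization. The KO-labelled values lay wholly above the WT-labelled ones for 5 of the 10 genes, against 11.1% of all probe sets, and wholly below for 3, against 44.9%. These shares include probe sets without a symbol and were not counted for named genes alone. The median change of the 10 was 0.58. At an unadjusted p under 0.05, limma counted 5 of the 10 higher and 1 lower. Over the whole array it counted 31589 of 65956 probe sets, both directions together, so such counts are common here. Without KO 3, WT 1, WT 2 or WT 3 it called no probe set of the whole array at the adjusted threshold, with 28697, 23757, 25102 and 21579 at an unadjusted p under 0.05, and so none of the 10 genes. Without KO 1 it called 3 of them, Cidea, Cox8b and Cpt1b, and without KO 2 it called 3, Ucp1, Cox8b and Cox7a1.

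**Figure D1:**
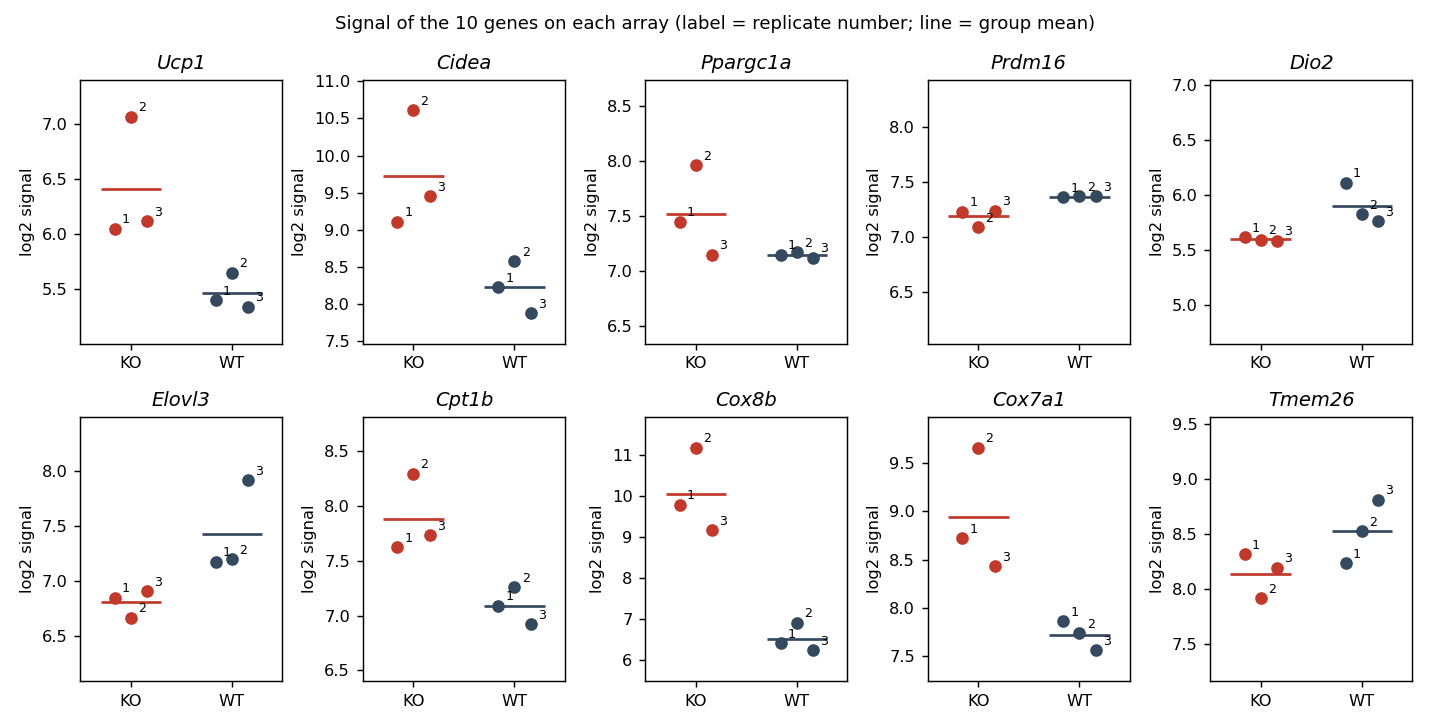
Log2 signal (vertical axis) of the 10 genes on the 3 KO-labelled arrays (red, left) and the 3 WT-labelled arrays (dark, right). Points carry the replicate number and lines are group means. KO 2 is the highest array for the 6 genes with a change above 0, and the groups do not overlap for Ucp1, Cidea, Cpt1b, Cox8b and Cox7a1 (higher) or for Prdm16, Dio2 and Elovl3 (lower, though centring turns Prdm16 and Dio2 to changes above 0).

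Ucp1 encodes the uncoupling protein itself. Its log2 signal was 6.05, 7.07 and 6.12 on the KO-labelled arrays, against 5.40, 5.65 and 5.34 on the WT-labelled arrays. All KO-labelled values lay above all WT-labelled ones, with KO 2 well above the rest. The means were 6.41 ± 0.57 and 5.46 ± 0.16 (SD, n = 3 each), and the change of 0.95 ± 0.29 (SE), with a 95% interval of 0.23 to 1.67, narrowly missed the threshold (limma adjusted p = 0.06). Without KO 2 the change was 0.62 and passed (adjusted p = 0.0431). The probe set is a dim one: its mean lay below 6.83, the median over all probe sets.

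Cidea encodes a lipid droplet protein that is abundant in brown and beige adipocytes. It read 9.11, 10.61 and 9.45 on the KO-labelled arrays and 8.23, 8.58 and 7.88 on the WT-labelled arrays. The groups did not overlap, and KO 2 was again the highest. The means were 9.72 ± 0.79 and 8.23 ± 0.35 (SD, n = 3 each). The change of 1.49 ± 0.41 (SE), with an interval of 0.48 to 2.50, missed the threshold by little (limma adjusted p = 0.0506), and passed without KO 1 (1.80, adjusted p = 0.0429). Cidec, its relative in white adipocytes and a coat protein of large lipid droplets, rose by 2.45 ± 0.43 (SE, limma adjusted p = 0.0354). Cideb, the relative best known from liver and named after its value was seen, fell by 0.63 (limma adjusted p = 0.0416), a call lost after centring (-0.30, adjusted p = 0.153). Within arrays Cidea stood further below Cidec on KO-labelled arrays: their difference averaged -1.93 ± 0.16 on KO-labelled and -0.97 ± 0.24 on WT-labelled arrays (SD, n = 3 each). That shift of -0.96 had an exact 2-sided permutation p of 0.1, the smallest that 3 against 3 arrays can give, and 0.2 after adjustment over the 6 pairs compared.

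Among the regulators, neither Ppargc1a nor Prdm16 passed. Ppargc1a, whose protein coactivates nuclear receptors and drives mitochondrial biogenesis, read 7.45, 7.96 and 7.15 on the KO-labelled arrays and 7.15, 7.17 and 7.12 on the WT-labelled arrays. KO 1 and KO 2 lay above the WT-labelled arrays, while KO 3 lay among them. The change of 0.37 ± 0.21 (SE), with an interval of -0.15 to 0.90, did not pass (limma adjusted p = 0.201). It was 0.15 without KO 2. The 3 named genes most like Ppargc1a over the 6 arrays, by Pearson's r among 4347 genes with an SD of at least 0.5, were the muscle glycogen phosphorylase gene Pygm (0.997), the fast myosin light chain gene Mylpf (0.996) and the fast myosin heavy chain gene Myh1 (0.993). Ppargc1b, the related coactivator gene, stood 0.33 ± 0.13 (SE) higher without passing (limma adjusted p = 0.0881). The difference between both coactivator genes was 0.04 ± 0.31 on KO-labelled and 0.00 ± 0.06 on WT-labelled arrays (SD, n = 3 each).

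Prdm16 encodes the zinc finger protein that holds brown and beige cells to their fate. It read 7.23, 7.09 and 7.24 on the KO-labelled arrays and 7.36, 7.37 and 7.37 on the WT-labelled arrays, so all KO-labelled values were lower, by little. The change of -0.18 ± 0.10 (SE), with an interval of -0.43 to 0.07, did not pass (limma adjusted p = 0.204), and it turned to 0.15 when each array was centred on its median and to 0.09 after quantile normalization. The 3 genes most like it over the arrays were Cyp4a31, Olfr347 and Olfr1282, the last pair olfactory receptor genes.

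Dio2 encodes the deiodinase that makes active thyroid hormone within brown fat. Its log2 signal was 5.61, 5.59 and 5.58 on the KO-labelled arrays and 6.11, 5.82 and 5.76 on the WT-labelled arrays. The KO-labelled values were tightly grouped below the WT-labelled ones. This probe set is also dim: all its values lay below 6.83, the median over all probe sets. The change of -0.30 ± 0.13 (SE), with an interval of -0.62 to 0.02, did not pass (limma adjusted p = 0.116), was 0.06 above the median of all probe sets, and turned to 0.03 after centring and 0.05 after quantile normalization.

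Elovl3 and Cpt1b act on fatty acids at opposite ends. Elovl3, an elongase of very long chain fatty acids that cold induces in brown fat, read 6.85, 6.67 and 6.91 on the KO-labelled arrays and 7.18, 7.20 and 7.92 on the WT-labelled arrays. All KO-labelled values were lower and WT 3 stood above its group. The change of -0.62 ± 0.23 (SE), with an interval of -1.18 to -0.07, did not pass (limma adjusted p = 0.0824). It was -0.38 without WT 3 and -0.29 after centring. Its 6 measured relatives went different ways. Elovl5, which elongates polyunsaturated fatty acids, rose by 2.18 ± 0.29 (SE, limma adjusted p = 0.0354), and Elovl6, the elongase of newly made fatty acids, was 1.86 ± 0.59 higher without passing (adjusted p = 0.0626). Elovl2 and Elovl7, named after their values were seen like Elovl1 and Elovl4, stood wholly lower on KO-labelled arrays, at -0.55 and -0.48, without passing (limma adjusted p = 0.0753 and 0.11). Elovl1 stood at 0.15 and Elovl4 at -0.15, which centring turned to 0.18, and their groups overlapped. The difference between Elovl3 and Elovl6 was -3.31 ± 1.35 on KO-labelled and -0.83 ± 0.61 on WT-labelled arrays (SD, n = 3 each), with an exact permutation p of 0.1 (0.2 after adjustment).

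Cpt1b encodes the carnitine palmitoyltransferase of muscle and brown fat, the gate for long-chain fatty acids into mitochondria. It read 7.62, 8.29 and 7.73 on the KO-labelled arrays and 7.09, 7.26 and 6.92 on the WT-labelled arrays, without overlap, and averaged 7.88 ± 0.36 and 7.09 ± 0.17 (SD, n = 3 each). The rise of 0.79 ± 0.21 (SE), or 1.73-fold with an interval of 1.21-fold to 2.46-fold, passed (limma adjusted p = 0.0477). Without KO 2 it was 0.58 and missed the threshold (adjusted p = 0.0509). Cpt1a, the form best known from liver, rose by 0.64 ± 0.15 (limma adjusted p = 0.0411), and Cpt2, which acts next on the inner membrane, by 2.12 ± 0.38 (adjusted p = 0.0354). The difference between Cpt1b and Cpt1a averaged -0.05 ± 0.24 on KO-labelled and -0.20 ± 0.17 on WT-labelled arrays (SD, n = 3 each), which overlapped (exact permutation p = 0.4, 0.48 after adjustment).

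Cox8b and Cox7a1 encode subunits of cytochrome c oxidase, the last complex of the respiratory chain, in the forms that striated muscle and brown fat use. Cox8b changed more than any other of the 10 genes. It read 9.79, 11.18 and 9.16 on the KO-labelled arrays and 6.40, 6.91 and 6.23 on the WT-labelled arrays. Every KO-labelled value was more than 2 units above every WT-labelled one, and the means were 10.04 ± 1.03 and 6.51 ± 0.35 (SD, n = 3 each). The rise of 3.53 ± 0.52 (SE), or 11.6-fold with an interval of 4.80-fold to 27.8-fold, passed (limma adjusted p = 0.0354), and 99.9% of all probe sets had a smaller change. The fold is not an exact value: the mean on WT-labelled arrays lay below 7.44, the median there of 1717 olfactory and vomeronasal receptor genes, best known from sensory neurons, so it may be background. The same holds for Cpt1b and Ucp1. The mark is a loose one, since 7.44 also lies above the medians of all probe sets on the WT-labelled arrays, 6.96 to 7.02. For Ucp1 the mean on KO-labelled arrays, 6.41, also lay below the median of these receptor genes there, 6.64, though KO 2 lay above it. Without KO 2 the rise of Cox8b was 2.96 (limma adjusted p = 0.017). Cox7a1 read 8.72, 9.66 and 8.43 on the KO-labelled arrays and 7.86, 7.74 and 7.56 on the WT-labelled arrays, again without overlap. Its means were 8.94 ± 0.64 and 7.72 ± 0.15 (SD, n = 3 each). It rose by 1.22 ± 0.32 (SE), or 2.32-fold with an interval of 1.34-fold to 4.02-fold (limma adjusted p = 0.0479). It missed the threshold after quantile normalization (1.44, adjusted p = 0.0565) and without KO 1 (1.32, adjusted p = 0.0596), and without KO 2 it was 0.86 and passed (adjusted p = 0.0322).

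The broadly used forms of the same subunits rose as well. Cox8a, the form of most tissues, rose by 2.74 ± 0.50 (SE) and Cox7a2 by 3.80 ± 0.70 (limma adjusted p = 0.0355 and 0.0356). Within arrays Cox7a1 stood further below Cox7a2 on KO-labelled arrays: the difference was -4.13, -5.21 and -4.22 on KO-labelled and -1.72, -2.77 and -1.32 on WT-labelled arrays, without overlap. That shift of -2.58 had an exact permutation p of 0.1 (0.2 after adjustment over the 6 pairs). The difference between Cox8b and Cox8a was -2.42, -1.67 and -3.06 on KO-labelled and -3.18, -3.80 and -2.53 on WT-labelled arrays, which overlapped (shift 0.79, exact permutation p = 0.2, 0.3 after adjustment). Besides Cox8b and Cox7a1, 16 subunit genes of the complex were measured, a count that includes Cox8a and Cox7a2. Of the 16, 10 rose and 1 fell, with a median change of 1.36, against 9.03% of named genes called higher and 12.9% called lower. The fall was that of Cox7b2, named after its value was seen (-1.04, limma adjusted p = 0.0429). Its call was lost after centring (adjusted p = 0.117) and after quantile normalization (adjusted p = 0.125). Among the rises were Cox4i1 (2.32), Cox7c (1.41) and Cox6c (1.06).

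**Figure D2:**
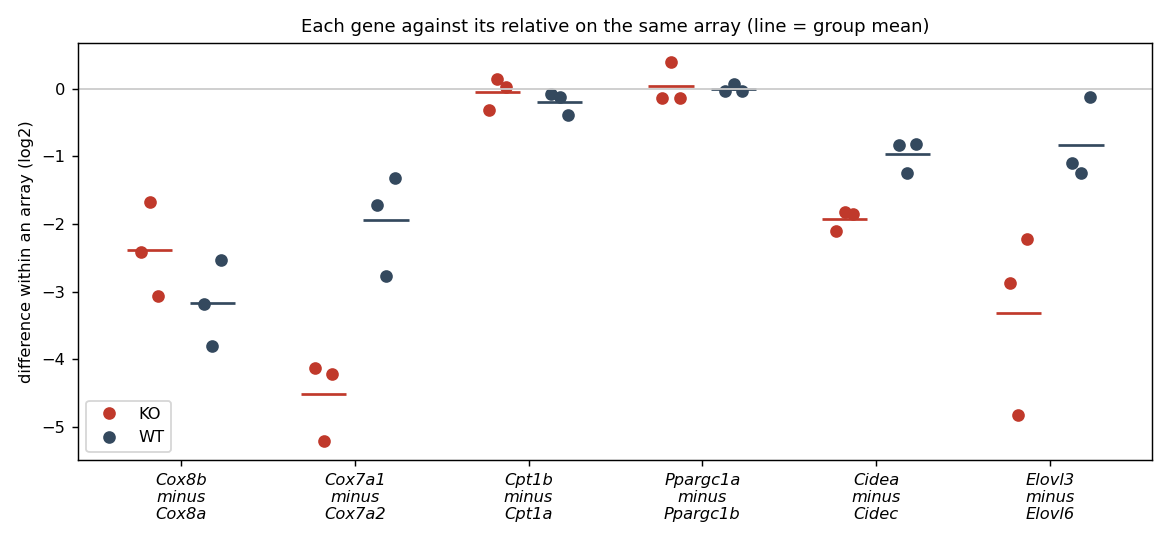
Difference in log2 signal between a gene and its relative on the same array (vertical axis) for 6 pairs, on KO-labelled (red, left of each pair) and WT-labelled arrays (dark, right), with lines at group means. Probe sets differ in brightness, so the shift between groups is to be read and not the height: it is -2.58 for Cox7a1 against Cox7a2, -2.49 for Elovl3 against Elovl6 and -0.96 for Cidea against Cidec, while the groups overlap in the other pairs.

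The stretches of 250 bases upstream of the start of 4 of the genes are shown because Cox8b and Cox7a1 rose together while Ucp1 narrowly missed and Dio2 read lower. They are RefSeq sequence of GRCm38.p6, 5′ to 3′ on the gene's strand. Capitals mark matches, on either strand, to the motifs searched: AAGGTCA (the half-site of estrogen-related receptors), TGACG (the core of the cyclic AMP response element), TATAAA (the TATA box), CACGTG (the E-box) and CCAAT.
Cox8b (chr7:140900447-140900696, minus strand): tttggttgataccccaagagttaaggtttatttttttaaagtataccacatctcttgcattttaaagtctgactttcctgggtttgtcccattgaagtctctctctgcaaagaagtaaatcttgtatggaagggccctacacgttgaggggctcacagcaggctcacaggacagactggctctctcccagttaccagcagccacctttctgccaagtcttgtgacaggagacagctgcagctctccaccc
Cox7a1 (chr7:30183921-30184170, plus strand): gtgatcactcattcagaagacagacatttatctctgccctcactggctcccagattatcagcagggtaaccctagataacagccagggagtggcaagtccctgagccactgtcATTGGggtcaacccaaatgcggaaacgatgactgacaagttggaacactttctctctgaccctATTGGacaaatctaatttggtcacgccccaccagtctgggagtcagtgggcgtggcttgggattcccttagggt
Ucp1 (chr8:83290098-83290347, plus strand): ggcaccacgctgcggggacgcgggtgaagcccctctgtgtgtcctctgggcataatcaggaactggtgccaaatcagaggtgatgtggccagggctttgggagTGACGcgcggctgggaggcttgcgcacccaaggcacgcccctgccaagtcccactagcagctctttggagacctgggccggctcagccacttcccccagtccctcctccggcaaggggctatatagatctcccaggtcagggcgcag
Dio2 (chr12:90739039-90739288, minus strand): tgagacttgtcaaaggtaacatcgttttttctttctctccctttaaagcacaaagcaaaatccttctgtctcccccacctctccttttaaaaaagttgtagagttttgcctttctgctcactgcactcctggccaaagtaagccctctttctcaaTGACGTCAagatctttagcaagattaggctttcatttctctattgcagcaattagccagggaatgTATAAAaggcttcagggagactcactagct
Upstream sequence was found for 7 of the 10 genes. TGACG occurred in 3 of these 7, Dio2, Ppargc1a and Ucp1, and in 17.8% of 32851 promoters of the same length. CCAAT occurred in Cox7a1 and Prdm16 (33.8% of all promoters), TATAAA in Dio2 alone (12.4%), and AAGGTCA and CACGTG in none of the 7 (4.08% and 6.02%). In Dio2 the TGACG matches of both strands overlap, so that the capitals there run on. The stretch of Cox8b held none of the 5 motifs. These matches are letters in a window and no measure of binding.

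Tmem26 encodes a membrane protein used as a surface marker of beige cells. It read 8.31, 7.91 and 8.19 on the KO-labelled arrays and 8.23, 8.52 and 8.81 on the WT-labelled arrays. The groups overlapped, since KO 1 lay above WT 1. The change of -0.38 ± 0.19 (SE), with an interval of -0.85 to 0.09, did not pass (limma adjusted p = 0.156) and lay close to the median of all probe sets, at -0.02 from it.

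KO 2 and WT 3 took the outer places for most of these genes. For the 6 genes with a change above 0, KO 2 was the highest KO-labelled array in 6 and WT 3 the lowest WT-labelled array in 6. Over the 9119 named genes with a change above 0 these shares were 74.2% and 42.1%. For the 4 genes with a change below 0, KO 2 was the lowest KO-labelled array in 3, against 76.7% of 21023 named genes. Across the 6 arrays the named genes most like Ucp1 were Timm13, Cpsf3 and Hsdl2, those most like Cidea were Septin2, Eloc and Stx7, those most like Cox8b were Brd2, F11r and Tmem59, those most like Cox7a1 were Ilk, Adh1 and Smt3h2-ps2, and those most like Cpt1b were Itch, Sowahc and Eci1, each with a Pearson's r of at least 0.998 over 6 points that fall into 2 groups. Those most like Dio2 were Olfr777, Olfr867 and Cabs1, those most like Elovl3 were Defb19, Vmn1r-ps68 and Olfr339, and those most like Tmem26 were Vmn2r-ps21, Olfr892-ps1 and Olfr1297, with an r of 0.968 to 0.996.

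Set against the housekeeping genes of the same array, only Cox8b of the 10 had all KO-labelled values above all WT-labelled ones. It lay 0.06 ± 0.76 below their mean on KO-labelled arrays (-0.06) and 2.59 ± 0.27 below it on WT-labelled arrays (-2.59, SD, n = 3 each), a shift of 2.53 without overlap. Ucp1 shifted by -0.05, Cox7a1 by 0.22 and Cidea by 0.50, and for all 3 the groups overlapped (exact permutation p = 0.8, 0.4 and 0.2). Cpt1b shifted by -0.21, Ppargc1a by -0.62, Prdm16 by -1.18, Dio2 by -1.30, Tmem26 by -1.38 and Elovl3 by -1.62, each with all KO-labelled values below the WT-labelled ones. The exact permutation p of these 6 and of Cox8b was 0.1, the smallest possible, and 0.143 after adjustment over the 10 genes. The changes of the 14 housekeeping genes themselves ran from -0.28 to 2.66, so this scale is no fixed ruler.

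**Figure D3:**
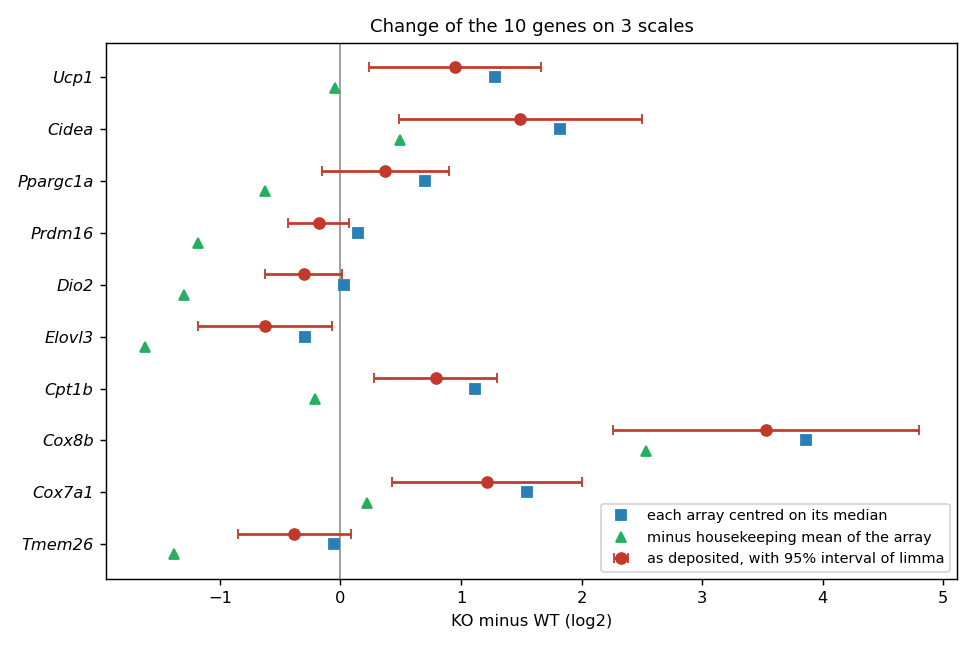
KO minus WT change (horizontal axis, log2) of the 10 genes on 3 scales: as deposited with limma's 95% interval (red circles), with each array centred on its median (blue squares) and minus the housekeeping mean of the array (green triangles). Cox8b is above 0 on all 3 scales by at least 2.53, Prdm16 and Dio2 change sign with centring, and Ucp1 stands at 0.95 as deposited and at -0.05 against the housekeeping genes.

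The mean of skeletal muscle markers was high on 2 of the KO-labelled arrays, though not every marker was. The mean log2 signal of 34 markers was 7.87, 8.76 and 6.83 on the KO-labelled arrays and 7.03, 7.03 and 7.08 on the WT-labelled arrays, so that KO 1 and KO 2 lay above and KO 3 below the WT-labelled arrays. limma called 0 of the 34 higher (0 at an unadjusted p under 0.05) and 1 lower, the slow troponin gene Tnnc1, which fell by 0.47 on the log2 scale, a call lost after centring (-0.14). The KO-labelled values lay wholly above the WT-labelled ones for 1 marker, Mylpf, wholly below for 6 (Tnnc1, Myh7, Myl3, Tnni1, Tnnt1 and Myog) and overlapped for 27. These 6 are mostly slow-fibre genes, were below on KO 1 and KO 2 too, and Myh7, Tnni1, Tnnt1 and Myog turned to changes above 0 after centring. Tnnt1 and Myog were named after their values were seen. The fast calcium pump gene Atp2a1 read 11.20, 13.39 and 7.12 on the KO-labelled arrays and 7.19, 7.08 and 7.36 on the WT-labelled arrays. The skeletal actin gene Acta1 read 9.59, 11.79 and 7.80 against 7.88, 7.58 and 7.46, and the muscle creatine kinase gene Ckm 7.84, 9.66 and 6.51 against 6.83, 6.72 and 6.85. Cox8b, Cox7a1 and Ppargc1a were likewise highest on KO 2, then KO 1, then KO 3, as was Ucp3, the uncoupling protein gene of muscle, at 7.65, 8.69 and 7.40 against 6.87, 7.12 and 6.89. Cpt1b, Cidea and Ucp1 were highest on KO 2, then KO 3, then KO 1. KO 3 alone against the WT-labelled arrays gave changes of 2.65 for Cox8b, 0.71 for Cox7a1, 0.64 for Cpt1b, 1.22 for Cidea, 0.66 for Ucp1 and 0.00 for Ppargc1a, a comparison added after the values had been seen in which the lone array is assumed to vary like the WT-labelled group. limma called no probe set in it (19275 at an unadjusted p under 0.05), and the adjusted p of Cox8b was 0.0853. The part of muscle tissue in the values of KO 1 and KO 2 was not tested. The mean of the 17 adipocyte markers was 11.96, 13.17 and 11.72 on KO-labelled and 9.48, 9.93 and 8.44 on WT-labelled arrays. It too was highest on KO 2, then KO 1, then KO 3, so that order was not particular to muscle markers. It was lowest on WT 3, and its part in the values of the 10 genes was not tested. Of 11 endothelial markers 9 rose and 0 fell, with a median change of 1.37, against 9.03% of named genes called higher and 12.9% called lower. The rises were led by the cadherin gene Cdh5 (4.06 ± 0.28, SE) and the growth factor receptor gene Kdr (2.48 ± 0.21, limma adjusted p = 0.0346 each). The mean of these 11 markers was 8.58, 9.004 and 8.40 on KO-labelled and 7.25, 7.29 and 7.08 on WT-labelled arrays. It was likewise highest on KO 2, then KO 1, then KO 3, and lowest on WT 3. Beside the 12.9% of named genes called lower, 0 of 11 lymph node markers rose and 5 fell (0 and 8 at limma's unadjusted p under 0.05), with a median change of -0.55. Their means were 6.66, 6.23 and 6.61 on KO-labelled and 7.04, 7.09 and 7.12 on WT-labelled arrays. No lymph node marker passed after centring, and only Cd3g did after quantile normalization (limma adjusted p = 0.0452). The olfactory and vomeronasal receptor genes had a median change of -0.81. The part of these cells in the values of the 10 genes was not tested either.

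**Figure D4:**
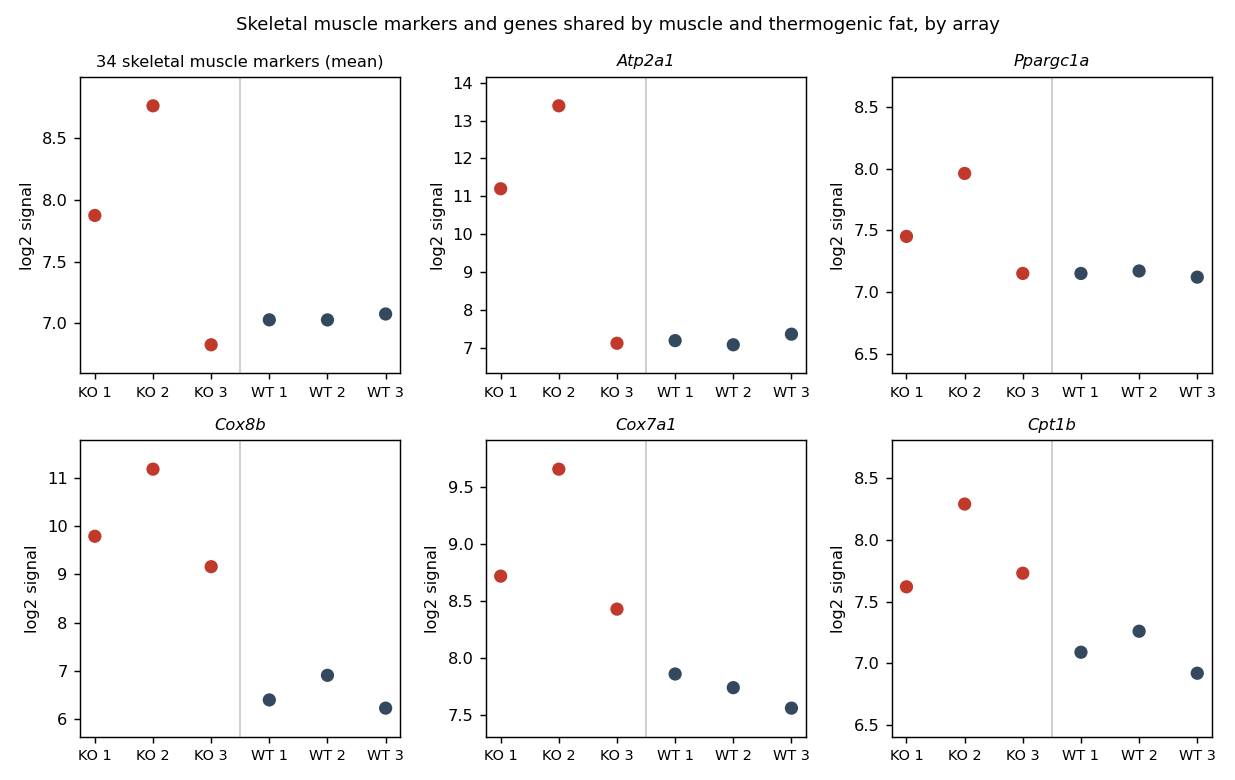
Log2 signal (vertical axes) on each of the 3 KO-labelled (red) and 3 WT-labelled arrays (dark) of the mean of 34 skeletal muscle markers, the muscle gene Atp2a1, and 4 of the 10 genes that muscle also uses. The muscle markers and Ppargc1a are high on KO 1 and KO 2 and not on KO 3. Cox8b and Cox7a1 have the same order of KO-labelled arrays and Cpt1b another, and these 3 genes do not overlap between the groups. The means of adipocyte and endothelial markers, not drawn here, also have the order KO 2, KO 1, KO 3.

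The wider programme was followed in 6 lists with 80 measured genes besides the 10. Of these 15 rose and 2 fell, with a median change of 0.18. Of all named genes 9.03% were called higher and 12.9% lower. The KO-labelled values lay wholly above the WT-labelled ones in 33 of the 80, against 11.1% of all probe sets. They lay wholly below in 24, against 44.9%. Both shares are over probe sets with and without a symbol, and none was counted for named genes alone. Of 17 regulators 1 rose and 0 fell (8 and 0 at limma's unadjusted p under 0.05): Zbtb16, a zinc finger gene that cold induces in brown fat, by 2.29 ± 0.60 (SE, limma adjusted p = 0.0468). Irf4, a transcription factor that partners PGC-1alpha, read 9.12, 12.51 and 9.26 on KO-labelled and 7.42, 7.35 and 6.82 on WT-labelled arrays. It was 3.10 ± 0.92 higher without passing (adjusted p = 0.0551). Nfia (0.93), Ppara (0.78) and Ebf2 (0.71), which act in brown adipocyte commitment and fat burning, did not pass either (limma adjusted p = 0.0607, 0.0582 and 0.0667).

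Among these 6 lists the adrenergic one held the most rises. Of 13 measured genes between receptor and target 8 rose and 0 fell, with a median change of 0.66. Of all named genes 9.03% were called higher. Rises were also common outside these lists: 7 of the 14 housekeeping genes rose and 0 fell, with a median change of 1.11. Pde3b, the phosphodiesterase that breaks down cyclic AMP in adipocytes, rose by 4.92 ± 0.54 (SE), Rgs2, which damps G protein signals, by 3.90 ± 0.89, and the protein kinase A regulatory subunit gene Prkar2b by 3.48 ± 0.51. Gnas, the stimulatory G protein gene, rose by 0.83 ± 0.13. Their limma adjusted p lay between 0.0354 and 0.04. Without a probe set of its own symbol, none of the 3 beta-adrenergic receptor genes was analysed here.

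Brown and beige markers are read here against the 9.03% of named genes called higher. Of 16 brown fat markers 1 rose and 0 fell (5 higher and 1 lower at limma's unadjusted p under 0.05), with a median change of -0.02, which is 0.35 above that of all probe sets. The marker that rose was Slc36a2, an amino acid transporter gene, by 1.25 ± 0.21 (SE, limma adjusted p = 0.0354). The potassium channel gene Kcnk3 stood at 0.66 without passing (limma adjusted p = 0.0751). Of 12 beige markers 3 rose and 0 fell (3 higher and 4 lower unadjusted), with a median change of -0.09, which is 0.28 above that of all probe sets. These were Car4, a carbonic anhydrase gene (2.85 ± 0.28, SE), Slc27a1, a fatty acid transporter gene (2.81 ± 0.46), and Sp100, a nuclear body gene (0.90 ± 0.16), each with a limma adjusted p of 0.0354. Epsti1, another beige marker, stood at -0.44 without passing (limma adjusted p = 0.0501).

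Heat can also be made without UCP1, by creatine and calcium cycling. Of all named genes 9.03% were called higher and 12.9% lower, so 1 call in either direction in a list of 13 or 10 genes is near those shares. Of 13 such genes for creatine and calcium cycling 1 rose and 1 fell. The calcium pump gene Atp2a2 rose by 1.77 ± 0.40 (SE, limma adjusted p = 0.0395) and the mitochondrial creatine kinase gene Ckmt1 fell by 0.43 (adjusted p = 0.0457). Of 10 genes for factors that brown fat secretes, Vegfa, the vascular growth factor gene, rose by 2.17 ± 0.41 and Il6 fell by 0.48 (limma adjusted p = 0.036 and 0.0386). Of 14 repressors of the programme and white fat genes 5 rose and 0 fell, among them the corepressor gene Nrip1 (2.02 ± 0.40), the retinoblastoma gene Rb1 (1.18 ± 0.27) and Foxo1 (1.68 ± 0.43). In the sympathetic nerve list 2 of 8 genes fell, tyrosine hydroxylase (Th, by 0.58) and the noradrenaline transporter gene Slc6a2 (by 0.51), with a list median of -0.38 close to that of all probe sets, and both calls were lost after centring or quantile normalization. The 2 falls among the 80 genes were both lost after centring or quantile normalization.

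**Figure D5:**
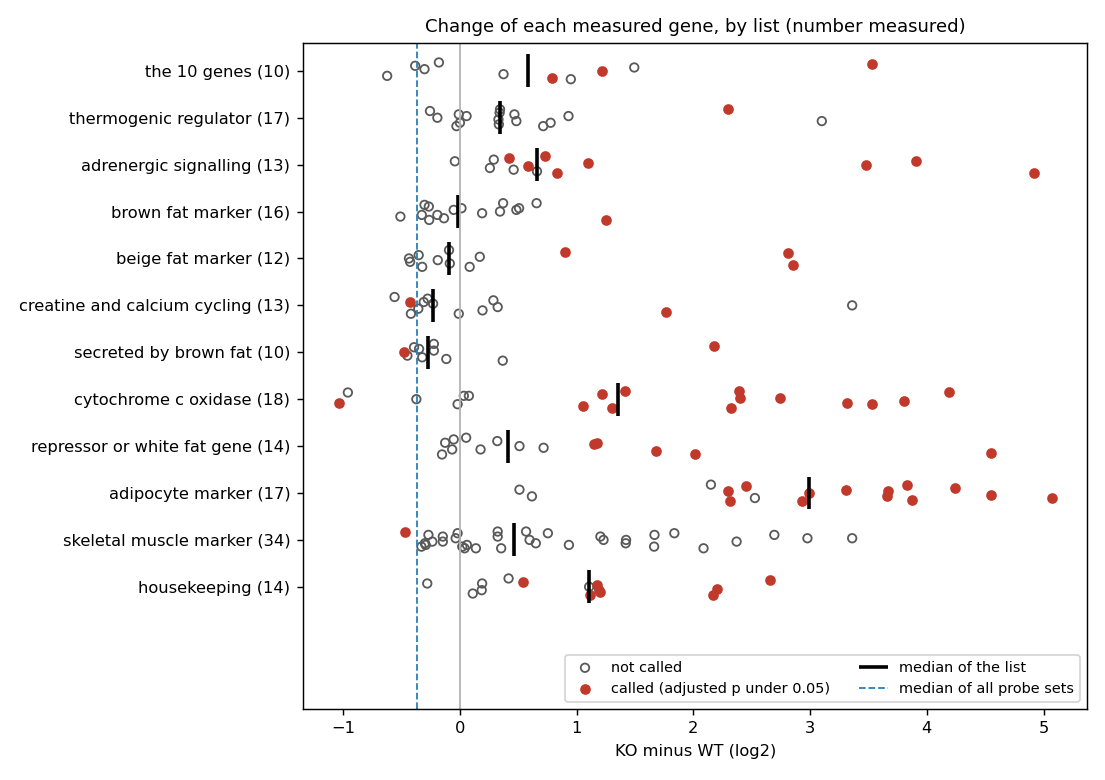
KO minus WT change (horizontal axis, log2) of every measured gene in 12 lists, with filled points for limma calls, black bars for list medians and a dashed line for the median of all probe sets (-0.37). The 10 genes have a median of 0.58, the adrenergic genes 0.66, and the brown and beige markers -0.02 and -0.09 (0.35 and 0.28 above the dashed line), against 1.36 for cytochrome c oxidase and 2.99 for adipocyte markers.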

How the data were processed

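Arrays from 3 KO-labelled and 3 WT-labelled mice were used, in 1 table of the authors' deposited log2 signals per probe set. Transcriptome Analysis Console was used, per the submitters' processing notes, and the background correction, normalization, summary and genome build behind these values were not given in those sources. Of 65956 probe sets 30604 had exactly 1 gene symbol, 2146 several and 33206 none, and symbols were updated through RefSeq (GRCm38.p6). The brightest probe set by mean stood for a gene.

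KO was compared with WT by limma 3.58.1 (R 4.3.3; lmFit, eBayes) over all 65956 probe sets, genotype being the only term, and Benjamini-Hochberg adjusted p-values under 0.05 were calls. Differences within arrays were compared by exact 2-sided permutation tests (scipy 1.17.1), adjusted by the same method; of 7 planned pairs, Ucp1 with Ucp2 was not analysed here. The limma step was tested on simulated data. Members, lists and motifs were chosen with earlier results of these data known. Named besides the 10 genes were up to 4 genes of each list with the smallest p, some fixed relatives, and the 3 genes most like each member; exceptions are marked where they stand. Alternatives covered scaling, filters, variance settings, array weights, the replicate block, thresholds and leaving out arrays. No detection calls or scan dates were available, and array number limits precision. Mice were separate animals per the labels ("biological rep").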

Additional observations from a re-analysis of the deposited data

How the results depend on the processing

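Cox8b, Cox7a1, Cpt1b, Ucp1, Cidea and Ppargc1a stayed above 0, and Elovl3 and Tmem26 below it, in every alternative array-wide fit. Against the housekeeping mean, however, Ucp1 stood at -0.05, Cpt1b at -0.21 and Ppargc1a at -0.62. Prdm16 and Dio2 turned to 0.0872 and 0.0544 after quantile normalization and to 0.15 and 0.0267 after centring, and passed nowhere. Over the alternatives other than KO 3 alone, adjusted p ran from 0.011 to 0.114 for Cox8b, 0.0263 to 0.134 for Cox7a1, 0.0224 to 0.136 for Cpt1b, 0.0301 to 0.157 for Ucp1 and 0.0228 to 0.142 for Cidea. The count of the 10 genes called higher, 3 as reported, was 2 after quantile normalization. It was 4 after centring, where Cidea passed (limma adjusted p = 0.0442), and 4 of the 8 kept when dim probe sets were left out. With eBayes trend and robust it was 5, with array weights 5, among probe sets with 1 symbol 5, and at an adjusted p under 0.1 5, where 1 was lower. At 0.01 the count was 0. Leaving out 1 array at a time it ran from 0 to 3, and none was lower (0). Of the 80 other genes, 15 higher and 2 lower, array weights called 25 and 6, and the threshold of 0.1 called 27 and 11. At 0.01, and for KO 3 alone, limma called 0 and 0. Those lower were 0 after quantile normalization, 0 after centring, 1 without dim probe sets, 5 among probe sets with 1 symbol, and 0 with the replicate block. Leave-one-out counts ran from 0 to 15 higher and 0 to 1 lower. Among calls over all probe sets, those higher made up 25.4% as deposited, 64.6% after quantile normalization and 61.2% after centring; the calls numbered 13791, 6244 and 8405, 22409 with array weights, 30676 at 0.1 and 0 at 0.01.

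With the replicate number as a block limma called 4 of the 10 genes higher (Ucp1, Cidea, Cox8b and Cpt1b), Cox7a1 missing it at an adjusted p of 0.0507. Deviations of same-numbered arrays correlated at 0.002, 0.20 and 0.14. KO 2 and KO 3 correlated best with the WT array of the same number, and KO 1 with WT 3 (0.17). These values are low, and the numbers were not taken to pair the mice. No detection calls were available: 1717 olfactory and vomeronasal receptor genes had a median log2 signal of 6.64 on KO-labelled and 7.44 on WT-labelled arrays. Of the 10 genes 7 had a WT-labelled mean below 7.44, so their folds are uncertain. This mark is loose, since it lies above the medians of the WT-labelled arrays, 6.96 to 7.02.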
